A study of Mus musculus with 2 samples.

Results

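The ribosome biogenesis factors described here are 38 genes for RNA polymerase I and its transcription factors, abundant nucleolar proteins, small nucleolar ribonucleoproteins (snoRNPs) and pre-rRNA processing factors. They were chosen by gene symbol, and all 38 were found among the 43346 genes measured. The samples are 2 libraries of polyadenylated RNA from MEL cells, an established mouse erythroleukemia line that stands at the stage of a red cell precursor, sequenced single-end. The labels call them biological replicates 1 and 2 of 1 group, with no treatment, genotype or time named. No condition was therefore compared: the values describe the levels of these genes in MEL cells and how far the replicates differ. Nothing in the labels says whether the replicates were separate cultures, so the spread between them may be partly technical. Developmental stage is given as unknown and sex as not collected.

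Ribosomes are assembled in the nucleolus. RNA polymerase I copies the ribosomal DNA into a long precursor RNA, box C/D snoRNPs methylate it and box H/ACA snoRNPs turn chosen uridines into pseudouridine. Large sets of processing factors then fold and cut the precursor into the rRNAs of the small and the large subunit while ribosomal proteins are added. Growing and dividing cells spend much of their transcription on this pathway, and red cell precursors divide several times before they mature.

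The sequences shown first belong to the members at the 2 ends of the order by ratio of replicate 1 to replicate 2, 5 at each end. Each is 60 bases of coding sequence within 1 exon, with G and C in capitals, because the difference between replicates followed the GC content of the transcripts (given below). The stretch was the first whose GC share came nearest to that of the transcript with the highest level of the gene. The 5 members with the highest ratio of replicate 1 to replicate 2 read as follows.
Npm1: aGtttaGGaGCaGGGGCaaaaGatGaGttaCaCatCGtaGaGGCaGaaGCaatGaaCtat
Nop58: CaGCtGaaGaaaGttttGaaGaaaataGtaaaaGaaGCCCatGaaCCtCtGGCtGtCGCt
Ncl: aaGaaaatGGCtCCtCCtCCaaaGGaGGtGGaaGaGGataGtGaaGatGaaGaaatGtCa
Dkc1: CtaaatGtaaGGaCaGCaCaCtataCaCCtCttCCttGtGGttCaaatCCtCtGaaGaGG
Wdr43: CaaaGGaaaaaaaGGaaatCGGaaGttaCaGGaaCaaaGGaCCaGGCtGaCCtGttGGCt
The 5 members with the lowest ratio read as follows.
Bop1: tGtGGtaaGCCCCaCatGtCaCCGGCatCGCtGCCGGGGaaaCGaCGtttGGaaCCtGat
Bysl: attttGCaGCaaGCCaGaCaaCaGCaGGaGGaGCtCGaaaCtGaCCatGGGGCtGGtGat
Rrp9: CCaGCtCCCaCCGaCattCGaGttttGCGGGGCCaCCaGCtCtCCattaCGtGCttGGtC
Mybbp1a: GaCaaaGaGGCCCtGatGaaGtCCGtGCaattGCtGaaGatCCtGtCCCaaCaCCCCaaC
Fbl: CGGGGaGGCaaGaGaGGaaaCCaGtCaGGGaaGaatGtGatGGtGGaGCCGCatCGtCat
The leading transcripts of the first 5 genes were 41.5% to 44.3% G and C, and those of the last 5 were 53.7% to 59.8%. That split rests on a near tie, since Nop10, at 46.5% G and C, came next after Fbl. Their log2 ratios were -0.462 for Nop10 and -0.463 for Fbl.

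A second pair of sequences belongs to Npm1, the member with the highest level, and to Gm14681, an annotated processed pseudogene that took many reads in replicate 1. Gm14681 lies on the minus strand of chromosome X (chrX:66778442-66778852, mm10) and is 411 nt long. It aligned to bases 460 to 879 of the 879 coding bases of Npm1, with 409 of 420 aligned columns identical, 2 substitutions and 1 gap of 9 bases in the pseudogene. In windows of 50 bases around the substitutions, the base in capitals is the one that differs, and positions count from 1 at the 5′ end of the window. The first window holds A26G, with the Npm1 base first.
Npm1: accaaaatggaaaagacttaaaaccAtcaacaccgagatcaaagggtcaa
Gm14681: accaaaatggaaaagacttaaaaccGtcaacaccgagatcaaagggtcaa
The second window holds A41G and ends with the stop codon.
Npm1: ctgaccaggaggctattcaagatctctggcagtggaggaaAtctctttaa
Gm14681: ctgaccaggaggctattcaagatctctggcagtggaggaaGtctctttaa

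The expected counts on genes summed to 67735380 in replicate 1 and 79923143 in replicate 2. All 14 erythroid marker genes stood at 1 TPM or more in both replicates (summed TPM 5221 in replicate 1 and 7088 in replicate 2), against 1 of 20 markers of myeloid, lymphoid, fibroblast, endothelial and epithelial cells. That 1 marker belongs to the T lymphoid list, which summed to 4.83 and 5.50 TPM. The other 5 lists summed to at most 0.79 TPM. The data are from bulk RNA, in which fewer cells of a type and less RNA per cell cannot be told apart.

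All 38 members were expressed at 10 TPM or more in both replicates. TPM is a level relative to all transcripts of the library and is corrected for transcript length. The same level was reached by 16.6% of all genes, by 31.4% of protein-coding genes and by 67.1% of the protein-coding genes that had at least 1 TPM in both replicates. At 100 TPM or more in both replicates stood 24 of 38 members, against 2.99% of all genes, 5.38% of protein-coding genes and 11.5% of those at 1 TPM. The median of the members' mean TPM was 159, with 167 in replicate 1 and 146 in replicate 2, while the protein-coding genes at 1 TPM had a median of 23.0. As a group the members took 1.53% of TPM in replicate 1 and 1.08% in replicate 2, or 1.78% and 1.40% of expected counts. Much of that gap came from Npm1: the members' TPM summed to 15330 in replicate 1 and 10828 in replicate 2 with it, and to 9536 and 8403 without it.

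**Figure D1:**
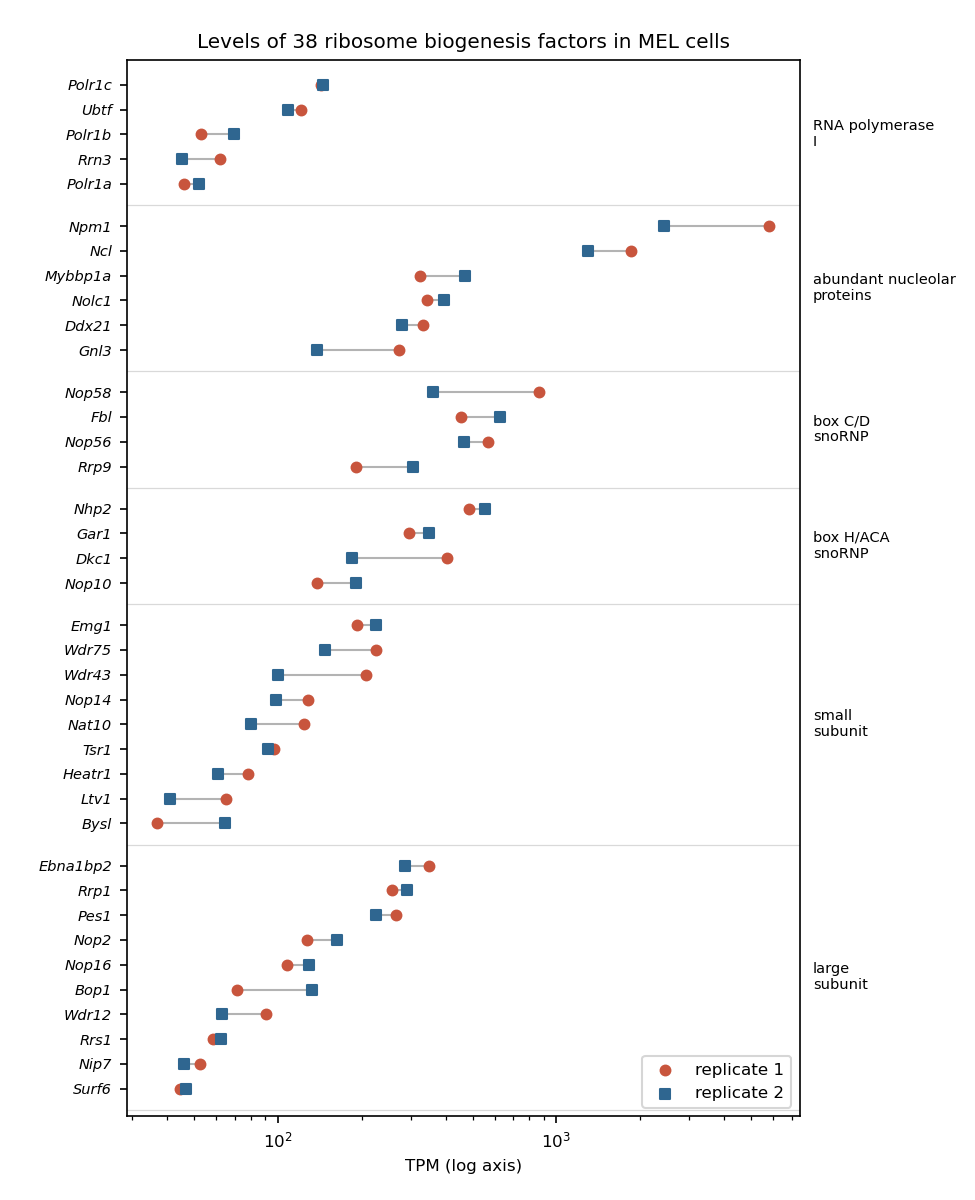
Level of each member in TPM (log axis) in replicate 1 (circles) and replicate 2 (squares), grouped by role and sorted by mean level within a role. Npm1 stands at 5795 and 2425 TPM, Ncl at 1855 and 1300 TPM, and the lowest member by mean level, Surf6, is at 44.5 and 46.7 TPM.

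The RNA polymerase I genes were the lowest of the 6 roles, with a median of mean TPM of 61.3 over 5 genes. Polr1a, the largest subunit and part of the catalytic centre, stood at 46.0 TPM in replicate 1 and 51.9 TPM in replicate 2. Polr1b, the other subunit of the catalytic centre, stood at 53.2 and 69.5 TPM. Rrn3, which joins the polymerase to its promoter factors, stood at 61.8 and 45.2 TPM, so that its level overlapped those of both catalytic subunits. Ubtf, which binds along the ribosomal DNA, was higher at 121 and 109 TPM. Polr1c, a subunit that RNA polymerase III also contains, was the highest of the role at 143 and 145 TPM (144 ± 1.10, SD, n = 2). That closeness held by TPM alone: by scaled counts its log2 ratio of replicate 1 to replicate 2 was -0.31, and its effective length was 795.5 nt in replicate 1 and 977 nt in replicate 2.

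The abundant nucleolar proteins held the highest members. Npm1 encodes nucleophosmin, a chaperone of the outer nucleolar layer, and lies at chr11:33152287-33163206 on the minus strand of mm10. It reached 5795 TPM in replicate 1 and 2425 TPM in replicate 2 and ranked 9 among the 21474 protein-coding genes by mean TPM. Ncl encodes nucleolin, an RNA-binding protein of the nucleolus, and lies at chr1:86344719-86359400 on the minus strand. Its level was 1855 TPM in replicate 1 and 1300 TPM in replicate 2, which gave it rank 61. No other member was at 500 TPM or more in both replicates.

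The other 4 of these genes lay between 138 and 470 TPM. Nolc1, which binds snoRNPs and moves between nucleolus and cytoplasm, stood at 342 TPM in replicate 1 and 395 TPM in replicate 2. Ddx21, an RNA helicase, stood at 332 and 279 TPM, and its values did not overlap those of Nolc1. Mybbp1a, a nucleolar protein first found through its binding to MYB, stood at 325 and 470 TPM. Gnl3, the GTPase nucleostemin, was the lowest of the role at 271 and 138 TPM.

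The box C/D snoRNP proteins had the highest median of the roles, 529 TPM over 4 genes. The core protein Nop58 was at 869 TPM in replicate 1 and 360 TPM in replicate 2, the widest gap of the role. The methyltransferase Fbl went the other way, with 455 and 629 TPM. Nop56, the partner of Nop58, was at 569 and 465 TPM. These 3 core proteins had mean levels of 517 to 614 TPM, and their ranges over the replicates overlapped, so no order among them held beyond the spread. Rrp9, which belongs to the U3 snoRNP alone, was lower at 190 and 305 TPM, with both values under every value of the 3 core genes.

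Among the box H/ACA snoRNP proteins the median was 309 TPM. Nhp2, a core RNA-binding protein, stood at 485 TPM in replicate 1 and 556 TPM in replicate 2, above all values of the other 3 genes. Dkc1, the pseudouridine synthase itself, stood at 407 and 185 TPM. Gar1 stood at 296 and 350 TPM. Nop10, the smallest core protein, stood at 138 and 191 TPM, under both values of Gar1. The range of Dkc1 overlapped those of both.

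The small-subunit factors had a median of 102 TPM over 9 genes. The base methyltransferase Emg1 was highest by mean level, with 192 TPM in replicate 1 and 226 TPM in replicate 2. Of the early-binding UTP proteins, Wdr75 had 224 and 148 TPM, Wdr43 had 207 and 100 TPM, and Heatr1 had 78.1 and 60.8 TPM. Wdr75 and Wdr43 stood above Emg1 in replicate 1 and below it in replicate 2, and Heatr1 was lower than all 3 in both replicates. Nop14, part of the small-subunit processome, had 129 and 98.2 TPM, and the rRNA acetyltransferase Nat10 had 125 and 80.2 TPM. Of the 3 late factors, Tsr1 had 96.5 and 92.5 TPM, Ltv1 65.3 and 40.9 TPM, and Bysl 36.9 and 64.6 TPM. Among these, Ltv1 and Bysl overlapped, and Tsr1 stood above both in each replicate.

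The large-subunit factors had a median of 110 TPM over 10 genes and a wide range of mean levels, 45.6 to 318 TPM. Ebna1bp2 was highest with 348 TPM in replicate 1 and 287 TPM in replicate 2. Rrp1 had 257 and 290 TPM and overlapped it. Pes1, which forms the PeBoW complex with Bop1 and Wdr12, had 265 and 226 TPM. Its partner Bop1 had 71.2 and 133 TPM, and Wdr12 had 90.4 and 62.9 TPM, so both partners were lower than Pes1 in each replicate. The rRNA cytosine methyltransferase Nop2 had 127 and 163 TPM, and Nop16 had 108 and 130 TPM. Rrs1, known in yeast for its part in adding the 5S ribonucleoprotein, had 58.7 and 62.7 TPM. Nip7 had 52.5 and 46.2 TPM, and Surf6 had 44.5 and 46.7 TPM. These last 2 were the lowest large-subunit factors, and their ranges overlapped.

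For scale, the same pathway was followed through 115 other genes (of 117 named, of which 2 had no match), among them the remaining polymerase I subunits, processome proteins, helicases, assembly GTPases and exosome subunits. All 115 reached 10 TPM in both replicates and 29 reached 100 TPM (backgrounds as above), with a median of mean TPM of 76.3, against 159 for the members. Ppan, a large-subunit factor, was the highest at 451 TPM in replicate 1 and 968 TPM in replicate 2. Brix1, also of the large subunit, followed at 557 and 242 TPM, then Npm3, a relative of nucleophosmin, at 339 and 456 TPM, and the polymerase I and III subunit Polr1d at 415 and 311 TPM. The lowest were Ttf1, which ends polymerase I transcription, at 13.4 and 11.8 TPM, and Efl1, which frees new large subunits of their last factor, at 15.5 and 11.3 TPM. Shq1, an assembly factor of H/ACA snoRNPs, stood at 15.2 and 15.6 TPM and the helicase Ddx31 at 17.4 and 15.8 TPM. The cytosolic ribosomal proteins, which the pathway adds to the rRNA, were higher, with a median of 976 TPM over 80 genes. The mitochondrial ribosomal proteins, which enter another ribosome, had a median of 85.9 TPM over 77 genes, lower than that of the members.

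Between the replicates, 5 of 38 members differed by 2-fold or more, and all 5 were higher in replicate 1. The ratios come from expected counts scaled by TMM, edgeR's trimmed mean of log ratios, and intervals are 95% exact binomial ones that cover counting error only. Across all 15251 genes tested, 20.4% differed by 2-fold, 12.4% higher in replicate 1 and 8.07% higher in replicate 2. Among the genes at 10 TPM in both replicates the shares were 13.5%, 8.56% and 4.99%, so the members' 5 of 38 (13.2%) was near the background. One library against another gives no test of a condition, and with 2 replicates the smallest exact sign-flip p is 0.5, so no p is given.

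Npm1 had 299623 expected counts in replicate 1 and 152761 in replicate 2, a log2 ratio of 1.33 (interval 1.32 to 1.34). Nop58 had 36475 and 19033, a log2 ratio of 1.30 (1.27 to 1.32). Ncl had 239450 and 141070, a log2 ratio of 1.12 (1.11 to 1.13). At these depths counting error was small beside the gap between libraries for each of the 3 genes. By TPM, Ncl was within 2-fold, with a log2 ratio of 0.51 (1.43-fold), and its effective length was 2801 nt in replicate 1 and 1844 nt in replicate 2. Dkc1 had 24525 and 14983 counts with a log2 ratio of 1.07, and Wdr43 had 32497 and 20130 with 1.05. Scaled by library totals, Dkc1 (0.95) and Wdr43 (0.93) were also within 2-fold. Gnl3 lay just inside the limit at 0.98 and just past it at 1.00 with DESeq2 size factors. At the other end stood Bop1 with 7974 counts in replicate 1 and 19007 in replicate 2 (log2 ratio -0.89, or -1.01 by library totals), Bysl with 6485 and 14496 (-0.80) and Rrp9 with 7811 and 16072 (-0.68). Over all members, 18 were higher in replicate 1 and 20 in replicate 2, with a median log2 ratio of -0.11, against -0.02 over all genes tested. The sign of that median depended on the scale, since the ratios of TPM had a median of 0.11.

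The direction followed the GC content of each gene's leading transcript. Of the 19 members with the lower GC content (41.5% to 50.6%), 17 were higher in replicate 1 and 2 in replicate 2, with a median log2 ratio of 0.46. Of the 19 with the higher GC content (51.1% to 59.8%), 1 was higher in replicate 1 and 18 in replicate 2, with a median of -0.24. All 5 members past 2-fold were in the lower set. Across the 38 members Pearson's r between log2 ratio and GC content was -0.85 and Spearman's rho was -0.81. Across the 15161 genes tested with a known GC content r was -0.56 and rho was -0.75. These are correlations across genes that share the same 2 libraries, and genes are not independent replicates. Length of the leading transcript showed no such order among the members (rho 0.02).

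Within steps of GC content the members' median lay near that of all genes in the middle steps and above it in the lowest and the highest step that held members. Between 40% and 45% GC, 8 members had a median log2 ratio of 1.06, against 0.80 over 2484 genes. Between 45% and 50% the medians were 0.37 for 8 members and 0.32 for all genes, and between 50% and 55% they were -0.24 for 16 members and -0.27 for all genes. Between 55% and 60% the 6 members had -0.33, against -0.70 over 3054 genes. When the trend over all genes was subtracted, 0 of 38 members stayed past 2-fold, against 8.70% of genes tested and 2.88% of genes at 10 TPM. The median ratio was then 0.11 and rho with GC content 0.08. The largest departures from the trend were Nop10 at -0.89, Gar1 at 0.57, Nhp2 at 0.54 and Npm1 at 0.52 on the log2 scale.

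**Figure D2:**
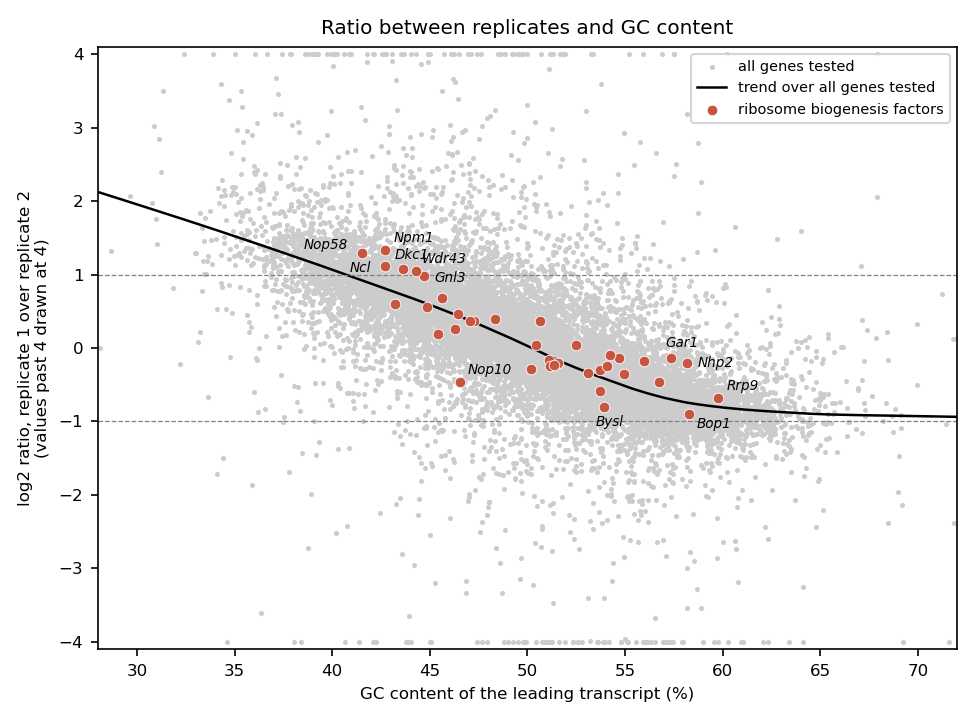
Log2 ratio of replicate 1 to replicate 2 against the GC content of the leading transcript (%), for all genes tested (grey; values past 4 drawn at 4) and the 38 members (red), with the lowess trend over all genes (line) and 2-fold limits (dashed). The members fall along the line, with Npm1, Nop58, Ncl, Dkc1 and Wdr43 above the upper limit and Nop10 the farthest below the line.

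The other pathway genes showed the same order. Of 115 tested, 11 were 2-fold higher in replicate 1 and 7 were 2-fold higher in replicate 2, with a rho of -0.89 with GC content, and 0 stayed past 2-fold after the trend was subtracted. The 3 with the highest ratios were the polymerase I subunit Twistnb (50.3 TPM in replicate 1, 16.6 TPM in replicate 2, log2 ratio 1.61), Rpf2, which helps place the 5S ribonucleoprotein (177 and 69.4 TPM, 1.56), and Taf1d, of the promoter selectivity factor (406 and 144 TPM, 1.54). The 3 with the lowest were the exosome subunit Exosc5 (41.6 and 98.5 TPM, -1.24), Taf1c, also of the promoter factor (11.0 and 26.2 TPM, -1.19), and the processome protein Noc4l (64.4 and 137 TPM, -1.18). The first 3 had leading transcripts of 40.3% to 41.1% GC, and the last 3 of 55.3% to 61.1%. Subunits of 1 factor, Taf1d and Taf1c, thus stood on opposite sides. What made the libraries differ with GC content was not tested.

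Npm1 shares sequence with 8 measured pseudogenes, and Gm14681 took reads in unequal shares. Gm14681, shown above beside its parent, was assigned 88344 expected counts and 5224 TPM in replicate 1, against 2538 counts and 118 TPM in replicate 2. The other 7 pseudogenes held at most 915 counts in replicate 1 and 255 in replicate 2. The 8 copies together took 23.1% of the counts of Npm1 and its copies in replicate 1 and 1.99% in replicate 2. With the copies' counts added, the log2 ratio of Npm1 was 1.68, a 3.21-fold difference, against 1.33 alone. The files cannot tell whether the reads on Gm14681 came from Npm1 transcripts. Of the other members, 16 had measured copies, which held at most 2.01% of the combined counts (Nolc1 in replicate 2) and 1.22% for Fbl in replicate 2. The deposited posterior SD of the count, a measure of how surely reads were assigned, was over 3 times the counting error for 0 of 38 members, against 2.21% of genes tested. It was highest for Npm1 in replicate 1, at 0.62 times the counting error, so it did not mark the division of reads with Gm14681.

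**Figure D3:**
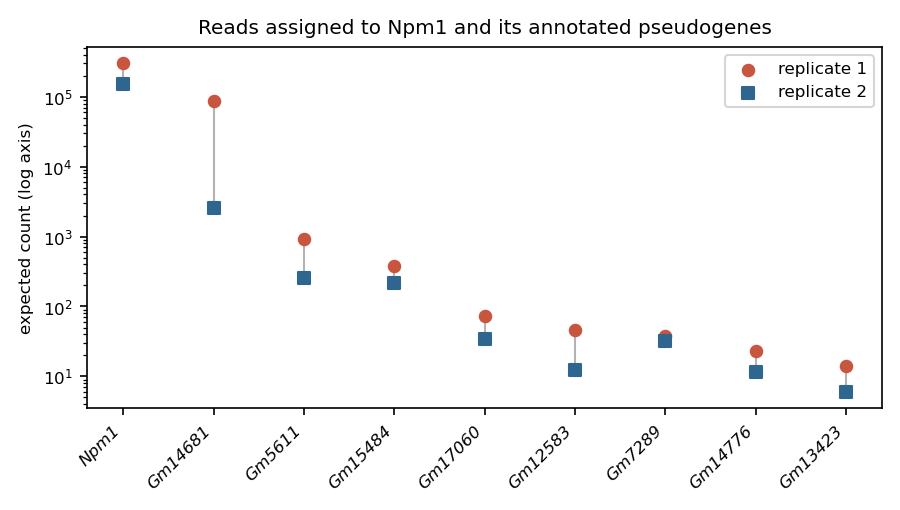
Expected counts (log axis) assigned to Npm1 and its 8 measured pseudogenes in replicate 1 (circles) and replicate 2 (squares). Gm14681 is at 88344 in replicate 1 and 2538 in replicate 2, and the other copies are at 915 or less.

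Some members had most of their TPM on transcripts not annotated as protein-coding. Of the 23 members with several annotated transcripts, 15 had the same leading transcript in both replicates (65.2%), against 78.4% of genes at 10 TPM. By expected counts in place of TPM, 20 of 23 did (87.0%), against 86.7% of those genes. The leading transcript was not protein-coding in both replicates for 3 members, Ncl, Nhp2 and Ebna1bp2, against 8.62% of protein-coding genes at 10 TPM, and in at least 1 replicate for 7 members, against 18.0%. The median share of TPM on protein-coding transcripts was 78.6% in the 23 members and 88.9% in those genes. As a mean of the replicates, the share was under 50% for 5 members, Ncl, Ebna1bp2, Nhp2, Dkc1 and Rrp9, against 13.1% of those genes. By expected counts it was under 50% for 2 members, Ncl and Nhp2, against 7.40%.

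Ncl was the clearest case. Its retained-intron transcript Ncl-202 took 80.8% of the gene's TPM in replicate 1 and 44.7% in replicate 2, and a shorter one, Ncl-205, took 14.0% and 48.5%. Protein-coding transcripts of Ncl held 4.45% and 6.26% of its TPM, or 9.69% and 11.7% of its expected counts. All retained-intron forms of Ncl together held 95.6% and 93.7% of its TPM, so the split among them differed more than their sum. These are classes of the annotation, and whether introns were retained in the RNA was not tested. Ncl-202 is 3072 nt long and lies within the span of Ncl-201, a protein-coding form of 8202 nt. Nhp2 had 65.7% and 62.9% of TPM on the retained-intron form Nhp2-201, with a mean share of 64.3% ± 2.00 (SD, n = 2). Ebna1bp2 had 78.7% and 49.2% on Ebna1bp2-202, annotated as a processed transcript, while its protein-coding share was 45.9% of expected counts in replicate 1 and 61.1% in replicate 2. Protein-coding transcripts of Dkc1 held 35.1% and 37.8% of its TPM but 71.9% and 73.3% of its expected counts. Those of Rrp9 held 40.3% and 40.2% of its TPM but 69.9% and 69.3% of its expected counts.

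In other members the leading form changed with the replicate. Polr1c had 51.4% of TPM in replicate 1 and 22.9% in replicate 2 on Polr1c-206, a form annotated for nonsense-mediated decay. Nop56 had 32.6% and 8.84% on the retained-intron form Nop56-208. Rrp9 had 24.9% and 42.6% on Rrp9-207, again annotated for nonsense-mediated decay. In Gar1 the retained-intron form Gar1-205 took 4.83% in replicate 1 and led in replicate 2 with 35.9%. Nip7, Nop14, Npm1 and Ubtf had over 96% of TPM on protein-coding transcripts in both replicates. Within Npm1 the form Npm1-204 led with 66.6% and 47.7%. A short form draws more TPM per read than a long one, and single-end reads were divided among forms by a model.

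**Figure D4:**
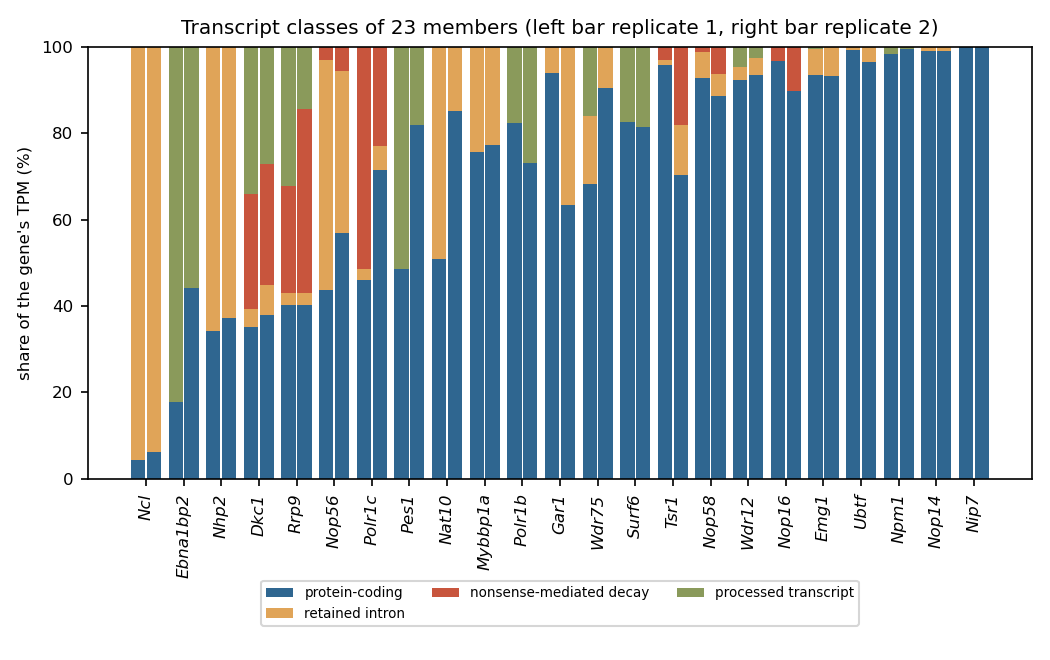
Share of each gene's TPM (%) on classes of annotated transcripts, for the 23 members with more than 1 transcript (left bar replicate 1, right bar replicate 2), sorted by the protein-coding share. Ncl is lowest with 4.45% and 6.26% on protein-coding transcripts, and Nip7 is at 100% in both.

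Of 16 pairs of members that work in 1 complex or step, 4 were called apart. The log2 ratio of TPM then had the same sign in both replicates and its mean passed 1.30 (2.46-fold). That limit is the 95th percentile of the difference between replicates over 7199 genes at 10 TPM or more. It measures the spread of single genes between libraries, not the usual distance between 2 different genes. The share of unrelated gene pairs past the same limit is not given, so 4 of 16 has no background. Polr1c was above Polr1a by a log2 ratio of 1.64 in replicate 1 and 1.48 in replicate 2 (1.56 ± 0.11, SD, n = 2). Wdr12 was below Pes1 by a log2 ratio of -1.55 and -1.84 (-1.70 ± 0.21). These 2 pairs were past the limit in each replicate. Nip7 was below Nop2 with -1.27 and -1.82 (-1.55 ± 0.39), and Bop1 was below Pes1 with -1.90 and -0.76 (-1.33 ± 0.80), each past the limit in 1 replicate. Another 5 pairs changed sign between replicates, among them Fbl over Nop58 with -0.93 in replicate 1 and 0.81 in replicate 2, and Nop56 over Nop58 with -0.61 and 0.37.

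Counting protein-coding transcripts alone, an alternative added after the data were seen, also gave 4 pairs, but only Nip7 and Nop2 were among both sets of 4. Polr1c over Polr1a had a mean of 0.76, Wdr12 over Pes1 was -1.14 and Bop1 over Pes1 was -0.67, all inside the limit. Npm1 over Ncl was 5.50 (45.3-fold) on this measure, against 1.27 over all transcripts. That value rests on the 4.45% and 6.26% of Ncl's TPM that were assigned to protein-coding transcripts. Gar1 over Dkc1 (1.31) and Ebna1bp2 over Rrp1 (-1.62) also passed. The partner ratios therefore depended on which annotated transcripts were counted.

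**Figure D5:**
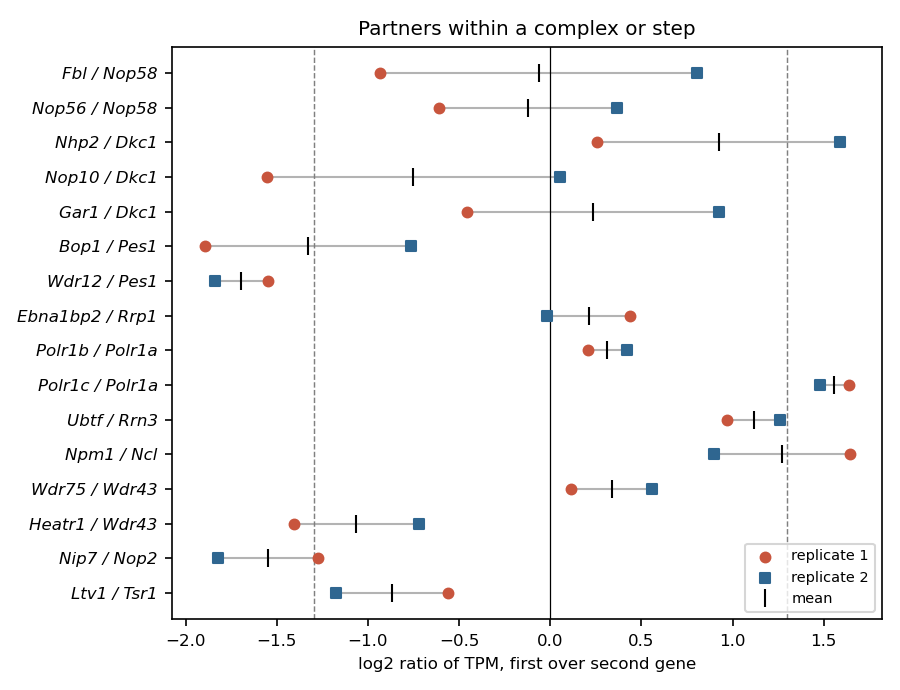
Log2 ratio of TPM of the first to the second gene in 16 pairs, in replicate 1 (circles) and replicate 2 (squares) with their mean (bar). The dashed lines are the limits of 1.30 either side of 0, and the means of Bop1/Pes1, Wdr12/Pes1, Polr1c/Polr1a and Nip7/Nop2 lie outside them.

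The gene bodies of 7 members hold snoRNAs, the guide RNAs of the snoRNPs. Ncl, Gnl3, Nop56, Nop58, Dkc1, Wdr43 and Tsr1 together held 21 annotated snoRNAs on their own strand. These were nearly absent from the counts. Snord69 in Gnl3 was highest in replicate 1 with 41.0 counts and had 23.0 in replicate 2. Gm24451 in Nop56 was highest in replicate 2 with 29.4 counts and had 24.0 in replicate 1. Snora75 in Ncl had 38.8 and 11.1. Snord69 (80 of 80 nt) and Snora75 (133 of 133 nt) lie wholly within annotated exons of their hosts. Whether their counts came from host transcripts was not tested. Another 4 snoRNAs were at 0 in both replicates. For those 4 the upper limit, from 3 counts, is 4.43e-06% of reads in replicate 1 and 3.75e-06% in replicate 2, for counting error only. The libraries were of polyadenylated RNA with a size range that the labels give as above 175, so mature snoRNAs, most of which are shorter, are outside what was measured.

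Exons of 13 members overlap a protein-coding gene on the opposite strand, and whether reads were counted by strand is not given in the sources used here. The overlap was widest for the small-subunit factor Tsr1, where 1240 nt, or 32.3% of its exon bases, also lie in exons of Srr (1039 counts in replicate 1 and 1012 in replicate 2, against 14381 and 14257 for Tsr1). Bysl shares 361 nt (9.37%) with Ccnd3, which had more reads than Bysl itself (13450 and 30559 against 6485 and 14496). Emg1 shares 334 nt (7.21%) with Lpcat3. The levels of these 3 members, and their ratios between replicates, are therefore uncertain. The share of exon bases sets no limit on this, since the reads gained would also depend on the level of the other gene. Ccnd3 stood at 185 TPM in replicate 1 and 428 TPM in replicate 2, against 36.9 and 64.6 TPM for Bysl. How many reads came from the opposite strand was not tested.

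Promoter sequences were matched for 34 of the 38 members, as 41 windows of 250 bases before to 50 bases after the start from RefSeq (GRCm38.p6). Bop1, Fbl, Npm1 and Rrs1 were not matched. The motif searched was CACGTG, the E-box bound by the MYC and MAX family among others, which reads the same on both strands. It was found in 7 of 41 windows (17.1%), against 7.15% of all 32851 windows in the table. By gene, 7 of 34 (20.6%) held it, against 8.09% of 27025 genes. The background was not limited to genes expressed in MEL cells, as all members were, so the excess cannot be set apart from expression. The sites are shown with up to 12 bases on either side and the motif in capitals. Upstream of the start stood 3 sites, 1 in Nop2 at 60 bases and a pair in Rrn3 at 215 and 48 bases, in that order.
Nop2: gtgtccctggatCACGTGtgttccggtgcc
Rrn3: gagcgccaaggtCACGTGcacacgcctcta
Rrn3: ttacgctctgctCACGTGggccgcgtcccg
Within the first 50 bases of the transcript stood the other 5.
Ltv1: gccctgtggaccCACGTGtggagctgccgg
Mybbp1a: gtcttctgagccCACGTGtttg
Pes1: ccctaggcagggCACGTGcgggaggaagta
Tsr1: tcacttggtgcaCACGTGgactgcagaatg
Wdr43: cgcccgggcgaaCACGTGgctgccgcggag
With the related motifs CACGCG and CGCGTG also accepted, which are each other's reverse complement, 18 of 41 windows (43.9%) held a match, against 15.4% of all windows. The 7 genes with CACGTG had mean levels of 53.1 TPM (Ltv1) to 397 TPM (Mybbp1a), within the range of the members without it. A match describes the sequence and does not show binding in MEL cells.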

How the data were processed

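Polyadenylated RNA of MEL cells was measured in 2 libraries. Per the file headers and the accompanying text file, the authors aligned reads to mm10 and quantified them with GENCODE M4. Which aligner, quantifier and strand setting they used is not given in the sources used here. The deposited expected counts are estimates, by gene and by transcript, and are not normalized. The authors scaled the deposited TPM values by effective length and library, and the deposited FPKM values by effective length and fragments. The deposited score columns hold the posterior SD of the count and bounds of a credibility interval of TPM. The deposited percent column gives each transcript's share of its gene.

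Gene symbols, transcript classes, positions and GC content were taken from GENCODE M21, also on mm10, through identifiers stripped of their version. Short features (0.0574% of counts in replicate 1 and 0.131% in replicate 2) and 97 spike-in sequences at 0 counts were left out, and TPM was not rescaled. The short features held 2.93% of TPM in replicate 1 and 6.24% in replicate 2. The TPM of genes thus summed to 97.1% and 93.8% of the total, which lowers TPM in replicate 2 slightly beside replicate 1. Ratios used expected counts scaled by TMM and a prior count of 0.5, for genes whose counts summed to 20 or more. The GC trend was a lowess curve (fraction 0.3). Intervals are exact Clopper-Pearson. Copies were found with blastn (at least 80% identity over at least 50% of a pseudogene). The members, the list of other pathway genes and the pairs were chosen with earlier results of these data known. All members are named. Of the other pathway genes, the 4 highest, the 4 lowest and 6 past 2-fold are named. The steps were tested on simulated data. Alternatives were other minimums, fold limits, units and scalings, and each replicate left out. Tools were R 4.3.3, edgeR 4.0.16, DESeq2 1.42.0, Python 3.11.15, scipy 1.17.1, statsmodels 0.14.6 and blastn 2.17.0.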

Additional observations from a re-analysis of the deposited data

How the results depend on the processing

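No paired analysis was possible because the series holds 1 group. Leaving out replicate 1 or 2 in turn gave 38 and 38 members at 10 TPM, 25 and 26 at 100 TPM, 115 and 115 other pathway genes at 10 TPM, a median member level of 146 and 167 TPM, and 4 and 6 pairs apart. At a minimum of 500 TPM in place of 100, 2 members passed, and at 50 in place of 10, 67 other pathway genes did. The median member level was 112 in FPKM, against 159 in TPM. At a limit of 1.5-fold, 11 members differed between replicates (8 higher in replicate 1, 3 in replicate 2), and 55 other pathway genes (32 and 23). Of all genes tested 50.3% did, a set that, unlike the members, includes genes under 10 TPM. With the GC trend removed, 0 members and 0 other pathway genes were past 2-fold, in either direction. Scaled by library totals, 3 members were 2-fold higher in replicate 1 and 1 in replicate 2, and 14 other pathway genes were 2-fold higher in replicate 2. The shares over all genes given above are for TMM scaling and do not serve as a background for these counts. No share over all genes is given for library totals, a scaling that moved the ratios of all genes towards replicate 2. The counts by library totals are therefore not read as a result about the members or the pathway. The median log2 ratio of members was -0.23 by library totals, -0.067 by protein-coding genes, 0.11 by TPM and 0.11 with the GC trend removed, against -0.11 as reported. At a limit of 1 on the log2 scale, 7 pairs were apart. With the 2 related motifs, 18 promoters matched. Library totals shifted every log2 ratio by -0.12, so the members' order was kept. The remaining 66 values of these results moved less than the limit set for each, but these limits were wide. The count of members at 100 TPM, 24 as reported, was 18 in FPKM and 32 at a minimum of 50 TPM, and both lay within its limit. For single members, 310 values stayed within the replicate spread or the counting interval and 163 moved further, and no ratio past 2-fold changed sign. The smaller copies had few reads. Intervals leave out variation between cultures.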
